A study of Mus musculus with 2 samples.

Results

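The 10 genes Apoe, Trem2, Gpnmb, Lpl, Cd36, Fabp5, Abca1, Abcg1, Pparg and Plin2, which handle lipid in macrophages, were followed through the phagocytes of tumour-bearing mouse lungs. They were taken by name and are 10 of the 16184 genes in the deposited tables. The phagocytes were picked by gates, a gate being all cells with at least 1 UMI (1 counted RNA molecule) of each of its genes. Ly6c2 with Ccr2 marks classical monocytes, Treml4 marks nonclassical monocytes, C1qa marks interstitial and other C1q-producing macrophages, Marco marks alveolar macrophages, Cd209a marks a kind of dendritic cell, and Csf3r with S100a8 marks neutrophils.

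The cells came from Scgb1a1cre /iDTR mice, in which the club cell gene Scgb1a1 drives a Cre that switches on a diphtheria toxin receptor, so that toxin kills cells of that lineage. Every mouse had received 150000 cells of the lung cancer line HKP1 through the tail vein, tamoxifen at 2 mg per 20 g on 5 days (day 3 to day 7), 250 µg of anti-PD-1 antibody at day 6 and 4 Gy of radiation on each of 3 days (day 10 to day 12). The DT group was given 2 doses of diphtheria toxin (600 ng per 20 g, days 8 and 9) and the PBS group was given PBS. Viable CD45-positive cells were sorted 24 to 48 h after radiation and made into 1 library of 3′ transcript ends per group, the study's design naming 4 mice for each. No label gives the age or sex of the mice or ties a cell to an animal, so each group is 1 pooled sample, no test between the groups was possible, and every interval below covers counting error only.

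The PBS library held 5702 cells with a median of 3719 UMIs and the DT library 6203 cells with a median of 2909 UMIs, of which 5651 and 5896 cells were kept, and 8 barcodes occurred in both. The gates held 538 PBS and 518 DT cells for Ly6c2 with Ccr2, 502 and 298 for Treml4, 541 and 622 for C1qa, 64 and 28 for Marco, 114 and 119 for Cd209a, and 1058 and 1492 for Csf3r with S100a8. The libraries differed in sex-linked RNA: of the C1qa cells that could be called from Xist and 4 Y-linked genes, 87.1% were male-called in PBS and 18.3% in DT (80.3% to 96.4% and 18.3% to 52.3% over the 6 gates), so the toxin and the sex of the animals cannot be told apart in these sums. Gates also overlapped, since 167 of the 502 Treml4 cells in PBS and 146 of the 298 in DT were neutrophil-gated too, and 129 and 137 of the C1qa cells passed the Ly6c2 with Ccr2 gate. Values are therefore given for all gated cells and, beside them, for cells in exactly 1 gate. The gates were set against marker lists, in CPM (UMI counts scaled to a common total per gate and library), and most held RNA of more than 1 list. The Treml4 gate held 14996 and 22619 CPM of 12 neutrophil markers in PBS and DT, against 2071 and 1253 CPM of its own 10 nonclassical monocyte markers. The Ly6c2 with Ccr2 gate held 15008 and 13770 CPM of 12 dendritic cell markers against 5893 and 5482 CPM of 10 classical monocyte markers, and the C1qa gate 24505 and 20476 CPM of the same dendritic cell list against 8528 and 8480 CPM of 11 C1q macrophage markers. The dendritic cell list holds genes of antigen presentation such as H2-Aa and Cd74, and also Ccr2, a gate gene. B cells outside all gates held 24563 and 25989 CPM of it, so it cannot count dendritic cells in a gate. Sums over different genes are also not on 1 scale. The share of each cell type in these 3 gates was thus not settled, and they are called by their genes and not by a cell type. Alveolar macrophage markers summed to 27942 and 25956 CPM in the Marco gate and to no more than 2500.1 CPM in the other gates, and neutrophil markers to 68094 and 65755 CPM in the Csf3r with S100a8 gate. The alveolar list holds Marco and the neutrophil list holds Csf3r and S100a8. These sums were thus in part set by the gating and are no independent check of the cell type.

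Macrophages clear dying cells, surfactant and lipoproteins, and must store, burn or export the lipid that they take up. Apolipoprotein E (Apoe) carries cholesterol out of the cell on lipoprotein particles that are lipidated by the transporters Abca1 and Abcg1, all of them targets of the sterol sensor LXR. Trem2 is a surface receptor for lipids and apoptotic material that signals through the adaptor Tyrobp, and Gpnmb is a lysosomal and surface glycoprotein found on lipid-laden macrophages. Lipoprotein lipase (Lpl) frees fatty acids from triglyceride, Cd36 takes them up, Fabp5 carries them in the cytoplasm and Plin2 coats the droplets in which they are stored. Pparg is the nuclear receptor on which alveolar macrophages depend for handling surfactant lipid.

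The genes lie as follows in the mouse genome (GRCm38.p6, RefSeq): Apoe at chr7:19696244-19701310, Trem2 at chr17:48346401-48352276, Gpnmb at chr6:49036518-49058182, Lpl at chr8:68880555-68906932 and Abca1 at chr4:53030789-53159988. The others are Abcg1 at chr17:31057694-31117984, Pparg at chr6:115360879-115490404, Fabp5 at chr3:10012585-10016610, Cd36 at chr5:17781690-17888959 and Plin2 at chr4:86626910-86670217. The promoter windows of RefSeq (GRCm38.p6, the build of the labels' mm10) held 7 of the 10 genes, with 11 start sites among them; Lpl, Abcg1 and Fabp5 were not in that table. Each 300-base window, from 250 bases before to 50 after a start, was searched on both strands for CACGTG and CATGTG, letters bound by lysosomal regulators of the Mitf and Tfeb family, for AGGTCA, letters bound by nuclear receptors, and for TGANTCA, the letters bound by AP-1. No 2 matches shared a base. Gpnmb held TGACTCA 8 bases after its start, and Trem2 held TGAATCA 9 bases before its start and AGGTCA (as TGACCT) 68 bases before. Plin2 held CACGTG 4 bases before its start and AGGTCA 218 bases before, and Abca1 held CACGTG 147 bases before. Pparg held AGGTCA 28 and 9 bases before 2 of its 3 starts, and Cd36 held it 228 bases before. Of all 32851 windows of this length, 7.15% held CACGTG, 14.2% CATGTG, 16.3% AGGTCA and 7.81% TGANTCA. The letters were thus common, and a match is a description of the window alone. Apoe held none of the 4 in its 3 windows, and CATGTG was in no window of the 7 genes. The windows of Gpnmb, Trem2 and Plin2 are shown, up to 30 bases after the start and with matches in capitals, because RNA of these 3 genes was found in the same C1qa cells (below). Apoe RNA was often found in those cells too, but its windows, without a match, are not shown. The windows shown are therefore no sign of a promoter feature shared by genes found together. Gpnmb lies on the plus strand at chr6:49036268-49036547, Trem2 on the plus strand at chr17:48346151-48346430 and Plin2 on the minus strand at chr4:86670030-86670309.
Gpnmb: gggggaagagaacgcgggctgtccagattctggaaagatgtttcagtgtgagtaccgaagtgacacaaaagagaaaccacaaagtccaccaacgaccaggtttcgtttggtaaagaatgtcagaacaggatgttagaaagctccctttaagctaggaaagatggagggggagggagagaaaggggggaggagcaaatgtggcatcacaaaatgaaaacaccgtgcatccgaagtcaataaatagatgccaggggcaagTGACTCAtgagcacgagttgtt
Trem2: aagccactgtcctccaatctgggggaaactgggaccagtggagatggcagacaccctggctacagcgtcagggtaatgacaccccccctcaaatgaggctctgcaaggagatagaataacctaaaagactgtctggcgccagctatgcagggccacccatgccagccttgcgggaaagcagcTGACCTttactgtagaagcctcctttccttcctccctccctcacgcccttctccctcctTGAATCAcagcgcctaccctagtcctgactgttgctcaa
Plin2: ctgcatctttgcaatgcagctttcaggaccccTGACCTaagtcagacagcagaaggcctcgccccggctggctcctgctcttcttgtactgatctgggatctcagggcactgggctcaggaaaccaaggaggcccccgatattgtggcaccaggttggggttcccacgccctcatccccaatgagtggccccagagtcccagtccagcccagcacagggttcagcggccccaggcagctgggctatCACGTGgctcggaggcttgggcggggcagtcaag

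Each gene had its own place among the gates (plot of levels by gate). Apoe was highest in C1qa cells, at 4168 CPM in PBS (95% Poisson interval 4115 to 4221) and 5404 CPM in DT (5345 to 5464), and lowest in Cd209a cells of PBS, at 22.3 CPM. Trem2 was likewise highest in C1qa cells, at 155 and 205 CPM, with Marco cells next at 119 and 94.1 CPM; the Poisson intervals of the 2 gates did not overlap in DT (193 to 217 against 60.9 to 139) and did in PBS (145 to 166 against 91.3 to 153). Lpl was highest in Marco cells, at 1664 and 1422 CPM, and C1qa cells came next with 279 and 261 CPM. Abcg1 was also highest in Marco cells, at 1593 and 715 CPM. The gate next to it was C1qa in PBS (301 CPM) and Treml4 in DT (326 CPM, with C1qa cells at 262 CPM). Pparg stood at 135 and 82.8 CPM in Marco cells and at no more than 19.5 CPM in any other gate. Plin2 also peaked in Marco cells, at 703 and 798 CPM. Fabp5 was at 810 and 981 CPM in C1qa cells and at 570 and 993 CPM in Marco cells, so that the 2 gates could not be ranked in DT. Levels are compared within a gene only, as counting of 3′ ends depends on the gene.

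**Figure D1:**
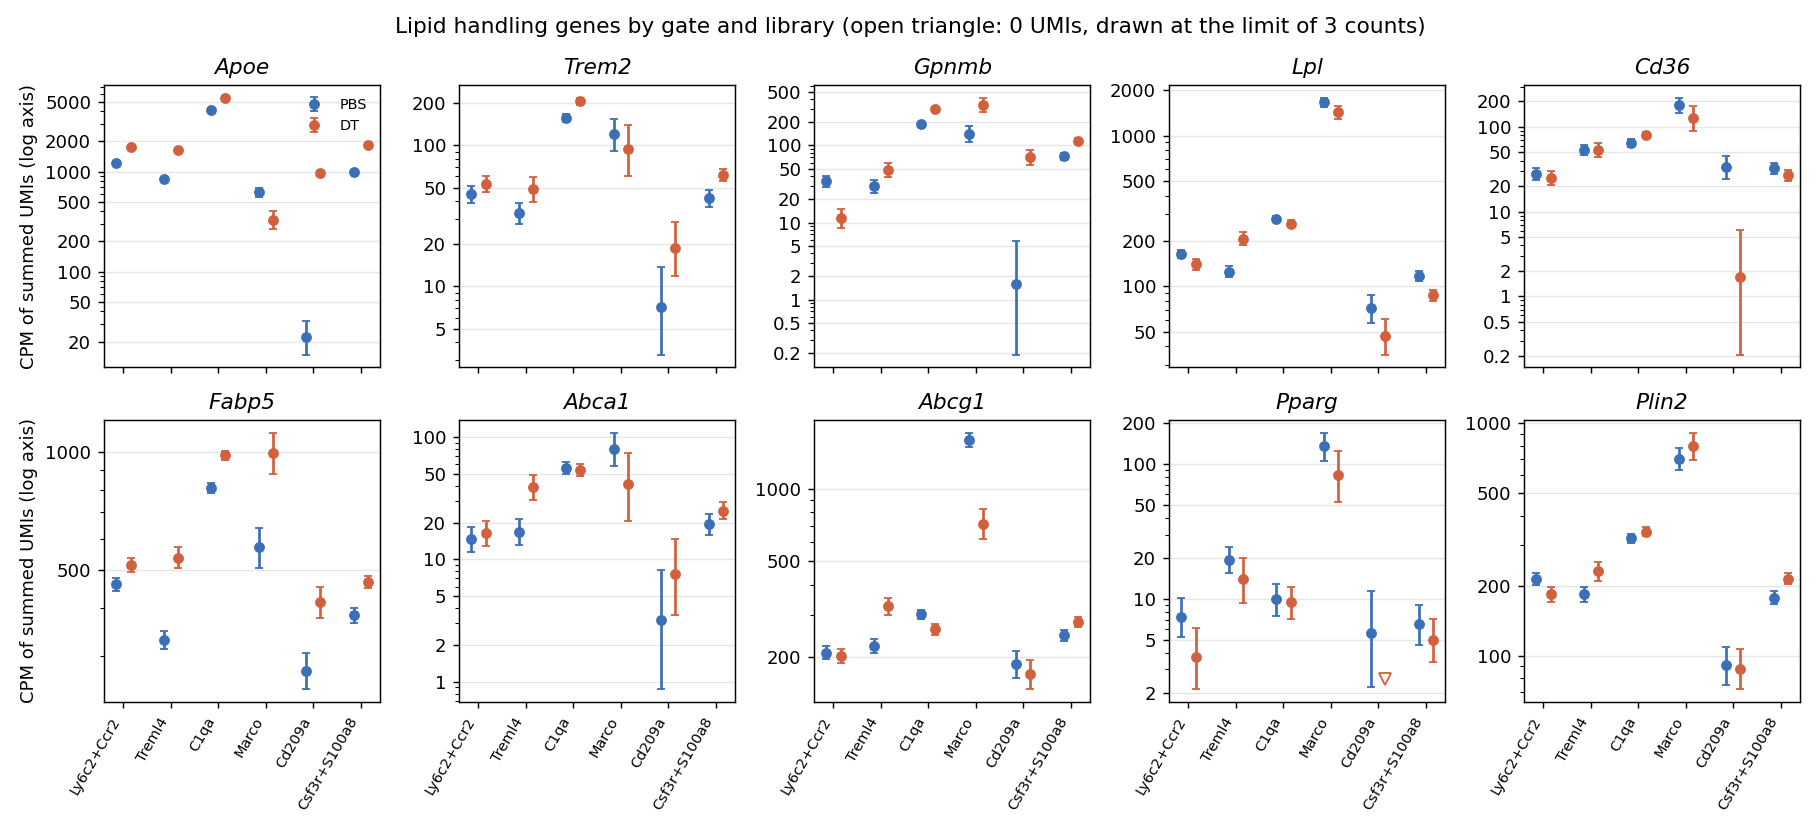
CPM of each gene (log axis, one panel per gene) in the 6 gates, PBS in blue and DT in orange; points are sums over all gated cells of 1 library and bars are exact 95% Poisson intervals. Apoe and Trem2 peak in the C1qa gate, while Lpl, Abcg1, Pparg and Plin2 peak in the Marco gate, and the only sum without a UMI is Pparg in Cd209a cells of DT.

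At equal depth, with each cell thinned to 1000 UMIs, 49.0% of C1qa cells in PBS and 59.1% in DT held a UMI of Apoe. The same share was 17.9% and 23.8% in B cells outside all gates, and 1.54% and 2.39% in T cells outside all gates, with median depths before thinning of 2825.5 and 2425 UMIs (B cells), 4361 and 4218 UMIs (T cells) and 9285 and 8619 UMIs (C1qa cells). Apoe in B cells therefore stood well above its level in T cells of the same libraries, and the T cell share is the lower measure of background. Abcg1 was found in 9.04% and 9.78% of B cells and in 11.8% and 12.1% of T cells, and Abca1 in 4.26% and 4.84% of B cells, close to the 4.93% and 5.27% of C1qa cells. Trem2, Gpnmb, Lpl and Pparg were each found in under 1% of both lymphocyte types, against 12.7% and 16.1% of C1qa cells for Trem2 and 9.68% and 10.7% of Marco cells for Pparg (plot of thinned shares). In C1qa cells Pparg was found in 1.14% and 1.48%, near that background.

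**Figure D2:**
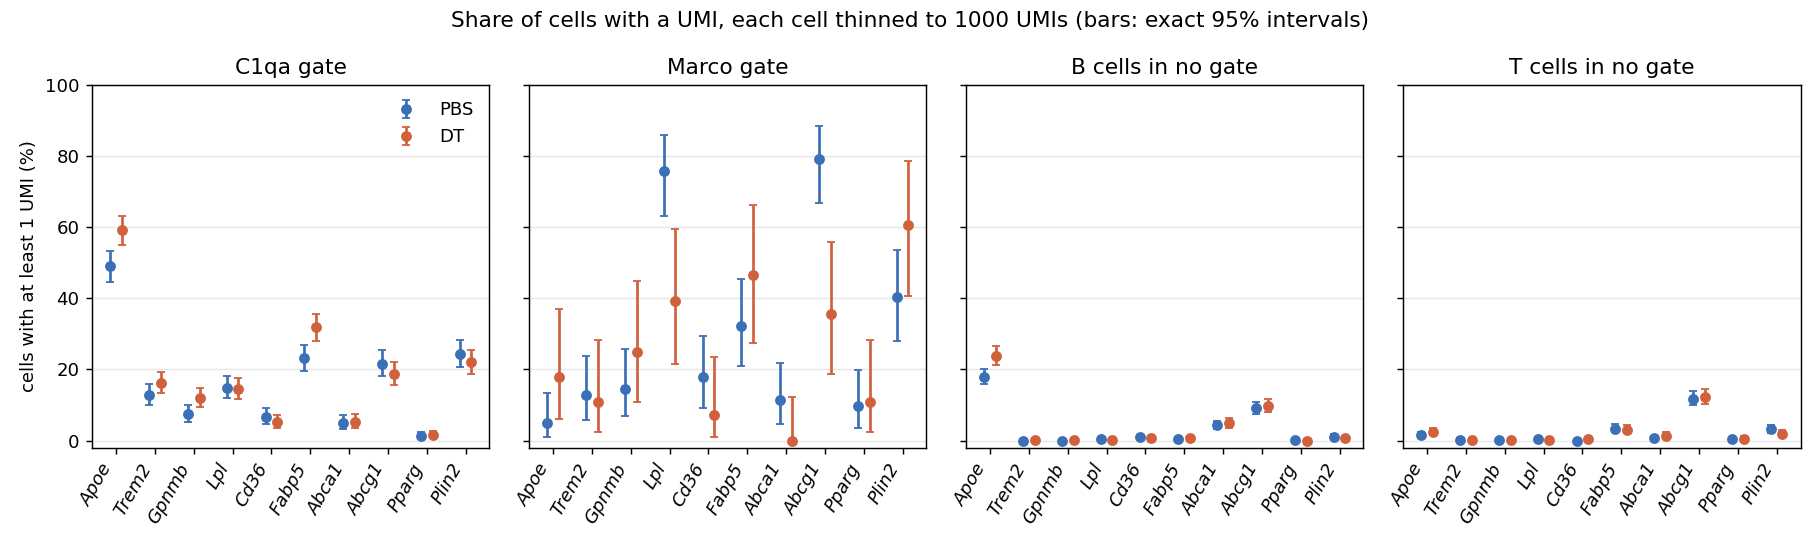
Percent of cells with at least 1 UMI of each gene after thinning every cell to 1000 UMIs, PBS in blue and DT in orange, with exact 95% (Clopper-Pearson) intervals, in 2 gates and in B and T cells outside all gates. Apoe, Abca1 and Abcg1 are also seen in lymphocytes, while Lpl and Abcg1 are seen in 75.8% and 79.0% of Marco cells of PBS and in 39.3% and 35.7% of those of DT.

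In C1qa cells the toxin-treated library held more RNA of Gpnmb, Apoe, Trem2, Fabp5 and Cd36. Abca1, Lpl, Pparg and Plin2 were near their PBS level, and Abcg1 was slightly lower. Gpnmb went from 188 CPM to 296 CPM, a ratio of 1.58 (95% interval 1.46 to 1.70), and was the only one of the 10 past the fold used here, at least 1.5 either way with 5 CPM added to both sides and at least 50 UMIs in both libraries together. By that rule 0.788% of all 10530 genes measured in the gate were higher in DT and 1.43% were lower, and none of the 10 was lower. The median log2 ratio of the 10 was 0.18 against 0.02 over all measured genes, but it was −0.087 after thinning with the gate called again on the thinned counts. It was −0.11 in female-called cells, −0.12 as a difference of means of the deposited values and 0.00095 with equal weight for each cell. In cells of the C1qa gate alone Gpnmb went from 229 to 462 CPM, a ratio of 2.02 (1.83 to 2.22), and after thinning it was found in 7.40% of C1qa cells in PBS and 11.9% in DT. Its RNA was concentrated, with 30.5% of the PBS UMIs and 20.2% of the DT UMIs in 5 cells.

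Apoe had a ratio of 1.30 (1.27 to 1.32) in C1qa cells and Trem2 a ratio of 1.32 (1.21 to 1.44), and in cells of this gate alone the ratios were 1.22 and 1.25. Fabp5 had a ratio of 1.21 (1.16 to 1.26), and its thinned share of cells was 23.1% in PBS and 31.8% in DT. Cd36 went from 64.9 to 80.4 CPM, while its thinned share was 6.64% and 5.11%, so that more UMIs and no more cells were counted. Lpl was at 279 and 261 CPM, Abca1 at 56.2 and 53.9 CPM, Pparg at 9.92 and 9.45 CPM and Plin2 at 320 and 342 CPM; the intervals of the Lpl, Abca1 and Pparg ratios held 1. Abcg1 was lower in DT by a ratio of 0.868 (0.81 to 0.93). Tyrobp, the adaptor of Trem2, was at 1492 and 1581 CPM. Beside these values, RNA of 10 B cell markers in the C1qa gate summed to 4649 CPM in the PBS and 282 CPM in the DT library, and that of 12 neutrophil markers to 6880 and 5863 CPM; their part in the ratios was not tested, and in C1qa cells without a UMI of 5 lymphocyte genes the log2 ratio of Gpnmb was 0.89 and that of Apoe 0.28.

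Sex-linked RNA moved with these values. Among male-called C1qa cells (278 in PBS, 72 in DT) Apoe went from 3270 to 6404 CPM, a ratio of 1.96 (1.89 to 2.03), while among female-called ones (41 and 322) it went from 7456 to 5591 CPM, a ratio of 0.75 (0.718 to 0.783). Trem2 had ratios of 1.91 and 0.924 in the same order, Abca1 1.97 and 0.35, and Cd36 2.33 and 0.51. Gpnmb ran the other way, from 191 to 170 CPM in male-called cells (ratio 0.888, 0.722 to 1.09) and from 129 to 336 CPM in female-called cells (ratio 2.60, 1.89 to 3.65), the latter from 40 UMIs in PBS. Fabp5 was the one gene of the 10 with a ratio past 1.5 in both, at 1.75 (1.62 to 1.88) and 1.84 (1.57 to 2.18). Over all 541 PBS and 622 DT cells of the gate its ratio was only 1.21 (1.16 to 1.26). Many cells of the gate could not be called and are in neither set, and their ratios were not taken. The female-called PBS cells and the male-called DT cells are few, and whether they come from 1 animal is not given.

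The C1qa gate was split further by the other gates and by Pf4, a gene of interstitial macrophages (plot of C1qa subsets). Among cells of the C1qa gate alone, Gpnmb was higher in DT in those with Pf4 (195 and 385 CPM, ratio 1.97, 1.61 to 2.43, with 93.1% of the 144 PBS UMIs in 5 cells) and in those without (241 and 488 CPM, ratio 2.02, 1.81 to 2.26). Apoe was at 10999 and 9895 CPM in the 79 PBS and 89 DT cells with Pf4 and at 3729 and 5936 CPM in the 224 and 263 cells without it, so that among these cells it was higher in DT in those without Pf4. In C1qa cells that were neutrophil-gated too it went from 3067 to 5530 CPM (ratio 1.80, 1.74 to 1.87), and in those that held Treml4 from 1963 to 2768 CPM (ratio 1.41, 1.327 to 1.4985). Fabp5 showed the reverse, with ratios of 1.57 (1.40 to 1.75) with Pf4 and 1.08 (1.01 to 1.14) without. This contrast rests in part on few cells. With Pf4, 5 cells held 69.9% of the PBS and 56.4% of the DT UMIs of Fabp5. Without Pf4, 5 cells held 27.0% of the PBS and 41.6% of the DT UMIs of Apoe. Lpl was lower in DT in cells with Pf4, from 549 to 340 CPM (ratio 0.62, 0.528 to 0.728). In C1qa cells that also held Ly6c2 and Ccr2, Gpnmb was lower in DT, with a ratio of 0.278 (0.192 to 0.393) from 93 CPM in the PBS library to 25.8 CPM, but 5 cells held 98.8% of the 168 PBS UMIs. Apoe had a ratio of 1.05 there.

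**Figure D3:**
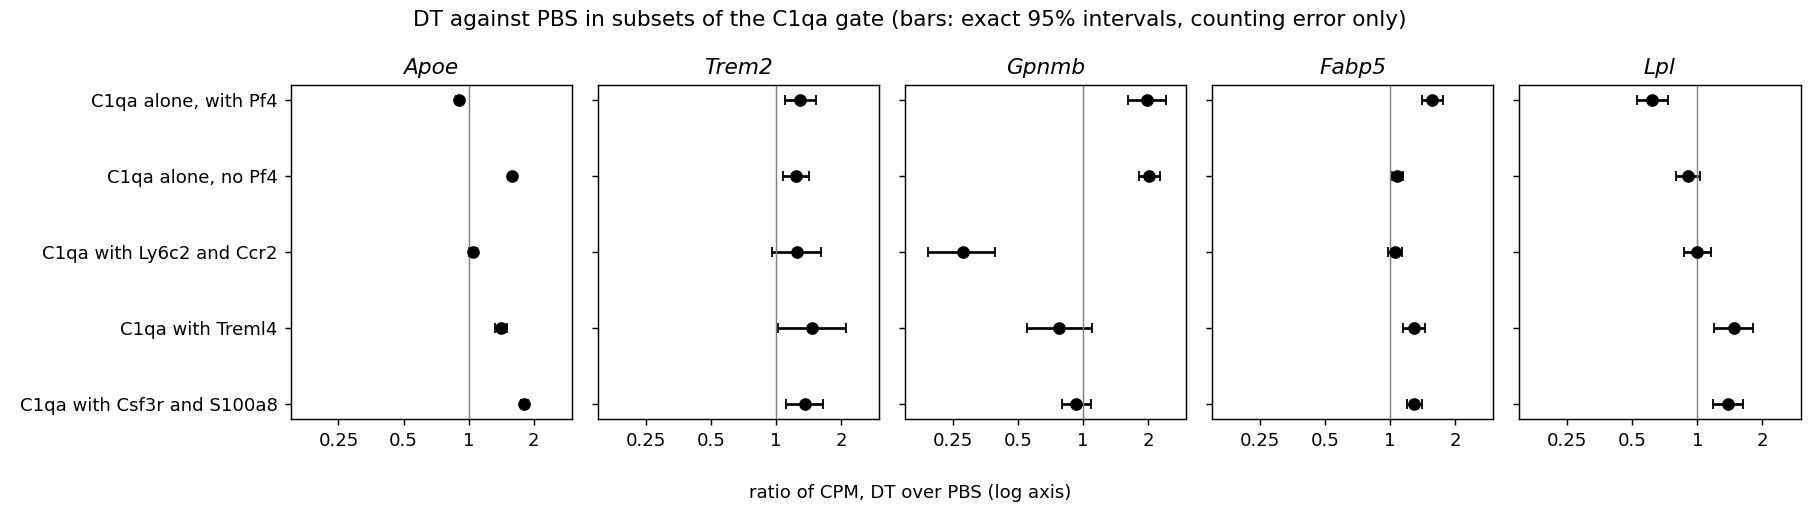
Ratio of CPM, DT over PBS (log axis), of Apoe, Trem2, Gpnmb, Fabp5 and Lpl in 5 subsets of the C1qa gate; points are ratios of the 2 libraries and bars exact 95% intervals of the UMI counts. Gpnmb is 1.97 and 2.02 in the subsets of cells in no other gate and 0.278 in cells that also hold Ly6c2 and Ccr2, where 5 cells held 98.8% of the PBS UMIs.

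Some of the genes were often found in the same C1qa cells. At 1000 UMIs per cell, Fabp5 was found in 74.4% of the 39 Gpnmb-positive cells of PBS and 19.1% of the Gpnmb-negative ones, and in 81.9% of the 72 Gpnmb-positive cells of DT and 25% of the others. Trem2 was found in 43.6% of Gpnmb-positive cells against 10.2% of negative ones in PBS, and in 50% against 11.6% in DT. Plin2 was found in 69.2% against 20.7% in PBS and in 48.6% against 18.5% in DT. Apoe was found in 87.2% against 45.9% and in 91.7% against 54.8%. Lpl, by contrast, was in 17.9% against 14.5% in PBS and 11.1% against 15.0% in DT. Gpnmb-positive cells thus held Trem2, Fabp5 and Plin2 more often and Lpl about as often as the other C1qa cells of their library. Marco cells held more of the 10 genes at a time, with a mean of 2.98 in PBS and 2.54 in DT against 1.66 and 1.86 in C1qa cells and 0.704 and 0.749 in neutrophil-gated cells.

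In alveolar (Marco) cells, 64 in PBS and 28 in DT, 7 of the 10 genes had log2 ratios below 0. How many of the 2561 genes measured in this gate lay below 0 was not counted, and their median was 0.00087. Abcg1 went from 1593 to 715 CPM (ratio 0.449, 0.381 to 0.526), from 1990 to 806 CPM in cells of this gate alone, and after thinning its share of cells was 79.0% in PBS and 35.7% in DT. Lpl was at 1664 and 1422 CPM over all gated cells, where 5 cells held 61.4% of the DT UMIs, and at 1933 and 1032 CPM in cells of this gate alone (ratio 0.534, 0.439 to 0.645). Pparg went from 135 to 82.8 CPM, on 69 and 22 UMIs, and Abca1 from 80.3 to 41.4 CPM, on 41 and 11 UMIs. Both intervals held 1 (0.361 to 1.0028 and 0.239 to 1.02), and after thinning Pparg was found in 9.68% and 10.7% of cells. Its log2 ratio was 1.10 in the cells that passed the gate again on the thinned counts, a smaller set. Cd36 went from 180 to 128 CPM, and from 199 to 60.2 CPM in cells of this gate alone, on 56 and 8 UMIs.

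Fabp5 and Gpnmb were higher in Marco cells of DT. Fabp5 stood at 570 and 993 CPM (ratio 1.74, 1.47 to 2.07), and at 583 and 1499 CPM in the 43 and 14 cells of this gate alone. Gpnmb stood at 141 and 339 CPM (ratio 2.40, 1.74 to 3.32), with a thinned share of 14.5% and 25%, but in cells of this gate alone its ratio was 1.55 with an interval of 0.97 to 2.44. Apoe, at 619 and 331 CPM, had 98.4% and 96.6% of its UMIs in 5 cells, and only 2 and 4 UMIs in cells of this gate alone. By the fold used here 2 of the 10 genes were higher and 4 lower, where 6.6% of the 2561 measured genes were higher and 8.32% lower, and their median log2 ratio was −0.40 against 0.00 over all measured genes. Neutrophil markers summed to 5321 CPM in PBS and 779 CPM in DT in this gate, and their part in the differences was not tested.

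Ly6c2 with Ccr2 cells held more Apoe in DT, going from 1220 to 1761 CPM (ratio 1.44, 1.40 to 1.49), below the fold used here. The difference was larger in cells of this gate alone, where Apoe went from 599 to 1370 CPM (ratio 2.29, 2.13 to 2.46) and its thinned share of cells from 21.2% to 40.9%, although 5 cells held 40.5% of these PBS UMIs. Gpnmb was the only one of the 10 genes past the fold, lower at 34.2 and 11.4 CPM, but 94.3% of its PBS UMIs lay in 5 cells and 96.6% in cells that passed another gate. Its log2 ratio of −1.25 became 0.67 in cells without lymphocyte RNA and 2.00 in female-called cells. Over all measured genes 1.13% were higher and 0.872% lower. The other 8 genes had log2 ratios between −0.50 (Pparg, 38 and 16 UMIs) and 0.22 (Trem2), and the median of the 10 was −0.09 against 0.00 over all measured genes.

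In Treml4 cells 5 of the 10 genes were past the fold, all higher in DT, where 4.62% of the 8747 measured genes were higher and 4.48% lower. Beside them, the 11 C1q macrophage markers of the tables, 10 of them detected, summed to 2128 CPM in this gate of PBS and 3650 CPM in that of DT, and neutrophil markers to 14996 and 22619 CPM; their part was not tested. Apoe went from 846 to 1661 CPM (ratio 1.96, 1.87 to 2.06), Abca1 from 16.8 to 39.0 CPM (ratio 2.33, 1.66 to 3.26), Lpl from 125 to 208 CPM, Fabp5 from 331 to 537 CPM and Gpnmb from 29.4 to 48.5 CPM. The median log2 ratio of the 10 was 0.59 against −0.02 over all measured genes, but as a difference of means of the deposited per-cell values it was −0.22. For Apoe, Abca1 and Fabp5 the ratio was at least as large in the 208 PBS and 84 DT cells of this gate alone, at 3.09 (2.71 to 3.52), 3.07 (1.30 to 6.96) and 2.30 (1.89 to 2.80), with 82.7% of the Fabp5 UMIs of DT in 5 cells. The median depth of these cells was 6420.5 UMIs in PBS and 2656.5 in DT. The 2 sets may thus differ in the cells they hold, which was not tested. Abcg1 reached 2.16 (1.73 to 2.68) there, from 180 to 389 CPM. Lpl had a ratio of 0.97 in those cells and Gpnmb 19 UMIs in PBS and 0 in DT. Of the DT Apoe UMIs of the gate, 88.4% lay in cells that passed another gate, and in male-called cells the log2 ratio of Apoe was −0.73. Fabp4, a fatty acid carrier, and Nr1h3, an LXR gene but not the only one, were lower in DT, at 55.9 and 34.0 CPM and at 73.7 and 44.0 CPM.

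Cd209a cells had too few UMIs of Trem2, Abca1, Pparg and Cd36 for the fold used here. Of the 6 others, Apoe and Gpnmb were higher in DT, where 2.61% of the 5740 measured genes were higher and 4.15% lower, and the median log2 ratio of the 6 was 0.26 against −0.03 over all measured genes. Apoe had 28 UMIs in PBS and 1130 in DT, of which 5 cells held 86.1%, and Gpnmb had 2 UMIs in PBS and 83 in DT, the latter in 3 cells. In male-called cells the log2 ratio of Gpnmb was −0.63. After thinning, Apoe was found in 1.79% of these cells in PBS and 10.4% in DT, beside 1.54% and 2.39% of T cells and 17.9% and 23.8% of B cells. Cd36 had 42 UMIs in PBS and 2 in DT, and 95.2% of the PBS UMIs lay in cells that passed another gate. Lpl, Abcg1, Fabp5 and Plin2 had log2 ratios of −0.56, −0.13, 0.57 and −0.05.

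In neutrophil-gated cells Apoe and Gpnmb were past the fold, both higher in DT, where 1.38% of the 10191 measured genes were higher and 1.53% lower, and the median log2 ratio of the 10 was 0.27 against 0.02 over all measured genes. That median was −0.32 in male-called cells and −0.040 as a difference of means of the deposited values, where Apoe had −0.23. Apoe went from 995 to 1828 CPM (ratio 1.84, 1.78 to 1.90) and Gpnmb from 72.0 to 115 CPM (ratio 1.60, 1.41 to 1.82). In male-called cells both were lower in DT, with log2 ratios of −0.32 and −1.61. Of the Apoe UMIs, 89.9% in PBS and 80.2% in DT lay in cells that passed another gate. Among the 763 PBS and 1186 DT cells of this gate alone, Apoe went from 210 to 612 CPM, while it was found in 8.92% and 9.17% of cells after thinning, between its shares in T cells and B cells of each library, and 5 cells held 43.4% of the DT UMIs. Gpnmb went from 14.1 to 98.8 CPM and Trem2 from 7.04 to 30.1 CPM in the same cells, with thinned shares of 0.274% and 1.48% for Gpnmb and of 0.686% and 1.22% for Trem2. Abcg1, found in 19.6% and 20.3% of these cells after thinning, had a ratio of 1.13 (1.02 to 1.26), and Plin2 one of 1.46 (1.27 to 1.68). RNA of B cell markers in the whole gate summed to 5138 CPM in the PBS and 593 CPM in the DT library; its part was not tested.

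**Figure D4:**
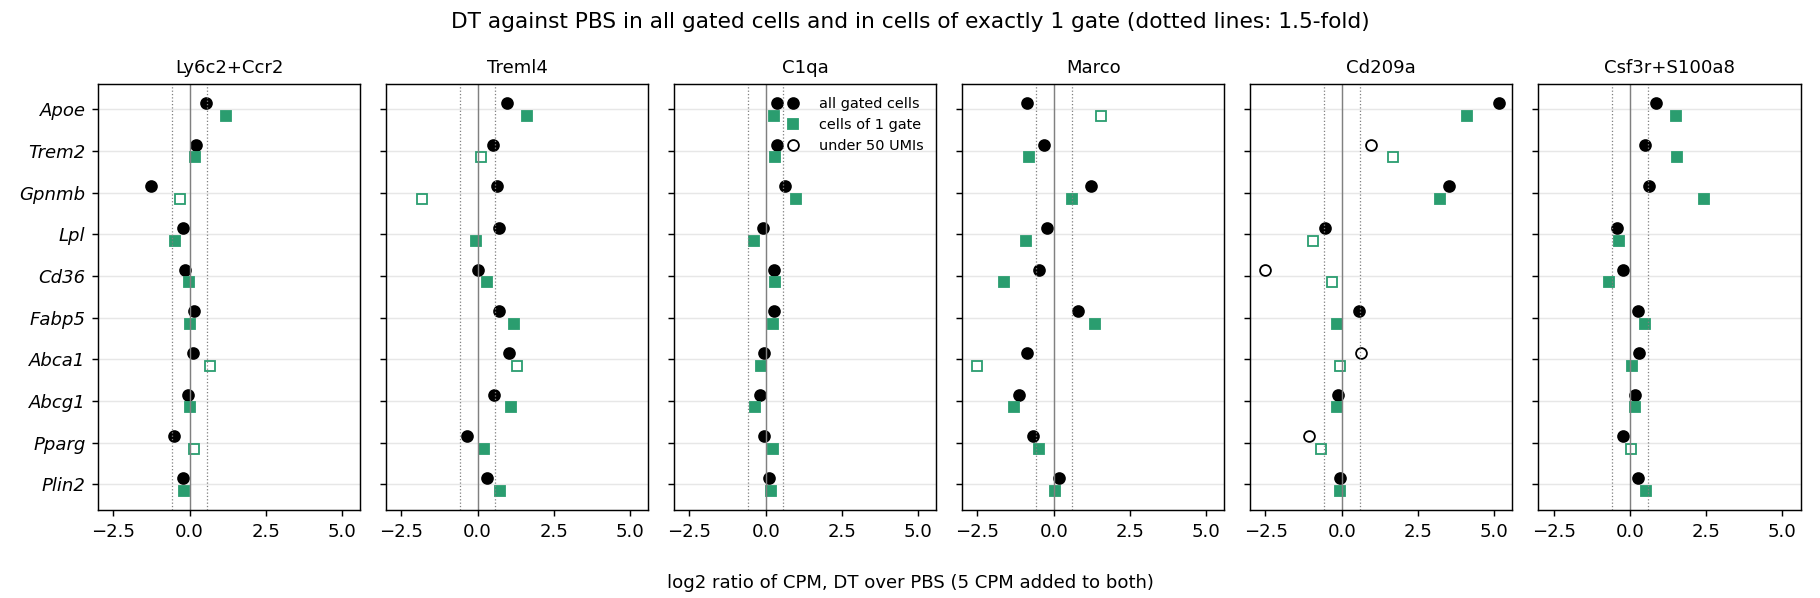
Log2 ratio of CPM, DT over PBS with 5 CPM added to both, of the 10 genes in each gate, for all gated cells (black circles) and for cells in exactly 1 gate (green squares); open symbols rest on fewer than 50 UMIs and dotted lines mark 1.5-fold. The sign differs between the 2 sets of cells for, among others, Gpnmb in Treml4 cells and Apoe in Marco cells, which rest on few UMIs in cells of 1 gate, Lpl in Treml4 cells (0.71 and −0.04) and Fabp5 in Cd209a cells (0.57 and −0.17).

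Wider lists of lipid genes, of which some share members with each other and with the 10, were close to level in C1qa cells, where the median over all measured genes was 0.02. By the fold used here 0.788% of all measured genes in this gate were higher in DT and 1.43% lower. How many of them had log2 ratios above 0 was not counted. Of 18 measured targets of LXR and genes of cholesterol efflux 1 was past the fold (Apoc1, a small apolipoprotein, higher on 9 and 53 UMIs) and 12 had log2 ratios above 0, with a median of 0.06. Nr1h3 was at 45.6 and 33.1 CPM and the other LXR gene, Nr1h2, at 57.1 and 64.1 CPM, and Mylip and Scd1 had log2 ratios of 0.40 and −0.55. None of the 19 measured genes of sterol synthesis and uptake passed the fold, and 11 were above 0, with a median of 0.09 and with Fdft1 (0.43) and Ebp (−0.27) at the ends of the list's log2 ratios. None of the 19 genes of fatty acid oxidation passed it either (median 0.03), nor any of the 23 genes of lysosomal lipid breakdown, of which 18 were above 0 (median 0.12), with the protease Ctsd at 1058 and 1380 CPM and the acid lipase Lipa at 122 and 119 CPM. Among 18 genes of lipid droplets Hilpda, an inhibitor of lipolysis, was higher at 20.4 and 39.2 CPM and the lipase Mgll lower at 7.31 and 2.06 CPM. Among 18 scavenger and apoptotic cell receptors none passed the fold and 15 were above 0, led by Msr1 at 106 and 156 CPM. None of the 13 genes of TREM2 signalling passed it (median 0.03).

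Over all measured genes of C1qa cells the median was 0.02, with 0.788% past the fold and higher in DT and 1.43% lower. The 25 measured genes found in lipid-associated macrophages, a state defined by Trem2, had a median of 0.11 in these cells, with 19 above 0 and 2 past the fold. These were Spp1 (osteopontin), at 377 and 732 CPM (ratio 1.94, 1.84 to 2.04), with 40.4% and 45.5% of its UMIs in 5 cells, and Fabp4, at 7.31 and 25.9 CPM, with 76.2% and 68.9% in 5 cells. The lowest log2 ratios were those of Atp6v0d2 (−0.56) and Ctsk (−0.51), a proton pump subunit and a protease. Of 15 PPARg targets and genes of fatty acid transport Fabp4 and the fatty acid transporter Slc27a1 were higher, and Car4 and Krt79, which mark alveolar macrophages, were lower (18.8 and 4.12 CPM, 9.40 and 0.172 CPM). In Marco cells the carrier Fabp1 was lower, at 411 and 86.5 CPM, Fabp4 was higher, at 186 and 391 CPM, and Ch25h, which makes 25-hydroxycholesterol, was higher, at 48.9 and 151 CPM. In Treml4 cells 7 of 15 scavenger receptors and 7 of 24 lipid-associated macrophage genes were past the fold and higher (1 and 2 were lower), beside 4.62% higher and 4.48% lower over all measured genes and the higher sums of C1q macrophage and neutrophil markers given above. Csf1 was among them, at 60.1 and 169 CPM. In neutrophil-gated cells none of 19 sterol genes had a log2 ratio above 0 (median −0.16 against 0.02 over all measured genes). How many of all measured genes lay above 0 in this gate was not counted. None of the 19 passed the fold, where 1.38% of all measured genes were higher and 1.53% lower. Scd1, the stearoyl-CoA desaturase, was lower, from 568 UMIs (106 CPM) in PBS to 76 UMIs (12.2 CPM) in DT. Beside it, RNA of 10 alveolar type 2 epithelium markers in this gate summed to 1220 CPM in PBS and 285 CPM in DT. B cell marker RNA was also lower in DT, while that of T cells, NK cells and fibroblasts was higher. Their part in the Scd1 difference was not tested.

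The genes most alike to each of the 10 were found by Pearson's r of log2(CPM + 5) over the 12 sums of cells in exactly 1 gate (6 gates in 2 libraries), a description over sums that share their library's depth. Apoe went with Gbp2b (r = 0.96), C3ar1 and Maf, and Trem2 with Itgb5 (0.95), Slc36a1 and Naglu. For Gpnmb they were Syngr1 (0.93), Lhfpl2 and Dnmt3a, for Lpl Rin2 (0.97), Pla2g15 and Tfec, and for Plin2 Pld3 (0.99), Slc38a6 and B4galt1. Abcg1 went with Acvr1b (0.98), Adarb1 and Acot1, Pparg with Tcf7l2 (0.96), Lima1 and Lilra5, Cd36 with Dram1 (0.92), Adgre1 and Abcc5, Abca1 with Usf2 (0.92), Cebpg and Tgfbr1, and Fabp5 with Gm14328 (0.90), Chchd10 and Mfsd11. Among the 10 themselves the highest r was that of Lpl with Plin2 (0.94), followed by Abcg1 with Pparg (0.87), and the lowest that of Apoe with Abcg1 (−0.49).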

How the data were processed

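Leukocytes of 2 pools were measured by 10x Genomics 3′ single-cell RNA sequencing. The authors deposited log2(CPM + 1) per cell and gene; the submitters' processing notes name STAR, Seurat and Partek and the mm10 genome, and no version, setting or annotation is given in the sources used here. With the log undone, dividing a cell's values by the smallest of them returned whole UMIs for 100% of values above 0 (within 1%). Totals were 31089434 UMIs in PBS and 27896059 in DT. Cells needed 200 genes, 500 UMIs and a mitochondrial share of no more than 10%; no doublet caller was run. UMIs were summed over gated cells and scaled to CPM, with Python 3.11.15, numpy 2.4.6 and scipy 1.17.1. Ratios of sums have exact conditional binomial 95% intervals, shares Clopper-Pearson intervals. With 1 library per group no test was run. Background B cells (Cd79a, no Cd3e) and T cells (Cd3e, no Cd79a) lay in no gate. Log2 ratios and ratio intervals were tried on simulated sums of the C1qa and Marco gates that held counting error alone. RNA concentrated in few cells was not simulated, and the other steps were not tested in this way. The members, gates and lists were chosen with earlier results of these data known.

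Genes named were the 10 members, for each the 3 most alike among genes of at least 50 CPM in 1 sum, the 2 highest and lowest of each list in C1qa cells and 1 each way in the other gates (only part of these list genes is printed), the gate genes and Tyrobp, Spp1, Fabp4, Nr1h3 and Lipa; another gene of the rule is not reported here. Alternatives changed the pseudocount (1 and 20 CPM), the gene minimum (20 UMIs or none), gate overlap, gate strictness (2 UMIs), lymphocyte RNA (Cd3e, Cd3d, Cd79a, Ms4a1, Ncr1), depth, cell filters, scaling, cell weight, unit, free RNA (10% of the library profile subtracted) and sex-called cells. For log2 ratios after thinning the gates were called again on the thinned counts, so both depth and cells changed. Thinned shares of cells kept the gates of full depth.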

Additional observations from a re-analysis of the deposited data

Results flagged for a closer look

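The 2 genes below are listed because their ratio was past 1.5-fold one way in some gates and past it the other way in another, with counting intervals that did not hold 1 (Abca1, higher in Treml4 and lower in Marco cells, had one that did); the difference between gates was not tested, as each library is 1 sample and the gates share cells. Apoe had log2 ratios (DT over PBS) of 0.97 in Treml4 cells, 5.15 in Cd209a cells and 0.87 in neutrophil-gated cells, and of −0.89 in Marco cells, where 5 cells held 98.4% of the PBS UMIs. Gpnmb had log2 ratios of 0.64 in Treml4 cells, 0.64 in C1qa cells, 1.24 in Marco cells, 3.52 in Cd209a cells and 0.64 in neutrophil-gated cells, and of −1.25 in Ly6c2 with Ccr2 cells, where 5 cells held 94.3% of the PBS UMIs. The high values in Cd209a cells are also weak. They rest on 28 PBS UMIs of Apoe and 2 of Gpnmb, and few cells held most of the DT UMIs, as given above.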

How the results depend on the processing

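The median log2 ratio of the 10 genes moved with the unit, the depth and the cells taken, and the causes were not tested. In C1qa cells (0.18) male-called cells gave 0.80 and female-called cells −0.11, thinning −0.087, equal weight for each cell 0.00095 and the means of deposited values −0.12. In Treml4 cells (0.59) the last 2 gave 0.16 and −0.22. In Cd209a cells (0.26) cells of 1 gate gave −0.044, male-called cells −0.18 and deposited values −0.16. In neutrophil-gated cells (0.27) cells of 1 gate gave 0.50, cells without lymphocyte RNA 0.46, male-called cells −0.32 and deposited values −0.040. Thinning, which leaves fewer genes at the minimum and only the cells that pass the gate again on thinned counts, gave 0.79 in Ly6c2 with Ccr2 cells (−0.09) and −1.92 in Marco cells (−0.40). Of 790 values of single genes under alternatives, 552 lay within counting error of the value reported. The sign was opposite for 89, of which 69 belonged to ratios within 1.5-fold (such as Apoe in female-called C1qa cells, −0.42) and 20 to ratios past it. These 20 were, in Treml4 cells, Apoe (male-called −0.73), Gpnmb (1 gate −1.82, 2 UMIs per gate gene −1.52), Lpl (1 gate −0.042, thinned −2.46, equal weight −0.13, deposited values −0.20) and Fabp5 (deposited values −0.30). In Marco cells they were Apoe (1 gate 1.54, no lymphocyte RNA 0.12, thinned 1.67, deposited values 1.11) and Pparg (thinned 1.10). In neutrophil-gated cells they were Apoe (male-called −0.32, deposited values −0.23) and Gpnmb (male-called −1.61). Gpnmb also changed sign in Ly6c2 with Ccr2 cells (no lymphocyte RNA 0.67, female-called 2.00), and in male-called C1qa (−0.17) and Cd209a (−0.63) cells. Female-called cells were too few in the Treml4, Marco, Cd209a and neutrophil gates and male-called cells in the Marco gate (fewer than 20 in 1 library), and thinned Cd209a cells left no gene at the minimum, so these were not run. No paired analysis was possible because each group is 1 library.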
